A study of Homo sapiens with 4 samples.

Results

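The regions described here lie at the genes of the TGF-β signalling core, which comprises 3 ligands (TGFB1, TGFB2 and TGFB3), 3 receptors (TGFBR1, TGFBR2 and TGFBR3) and 4 SMAD proteins (SMAD2, SMAD3, SMAD4 and SMAD7). Peaks of 4 ATAC-seq libraries were merged wherever they shared at least 1 bp, and a merged region was a member when it touched the GENCODE release 44 body of a listed gene extended by 20 kb on each side. This gave 122 member regions out of 164301 merged regions, and none of them belonged to more than 1 of the 10 genes. ATAC-seq uses the Tn5 transposase to cut open chromatin, so a peak marks accessible DNA and says nothing of how much RNA or protein a gene makes.

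The cells were pancreatic progenitors (PPs) derived from MEL1, an established human embryonic stem cell line, so all values come from 1 line. The methods name it MEL1 INS GFP/W, a reporter line that carries GFP at the insulin gene in both conditions. All 4 libraries came from PPs kept in EF6, a DMEM medium with B27, the growth factors EGF (50 ng/ml) and bFGF (10 ng/ml), and the compound 616452 at 10 μM, a small molecule that blocks the TGF-β type I receptor kinase. The controls received the solvent DMSO, and the other cultures received 1 μM I-BET151 for 7 days (the medium named EF6I), a compound that occupies the acetyl-lysine pockets of the BET bromodomain proteins. There were 2 libraries per condition, each from 50000 cells. TGF-β signalling was therefore under a receptor inhibitor in both conditions, and the comparison is between I-BET151 and DMSO on top of that inhibitor, with no library without it. Nothing in the sources used here said whether same-condition libraries came from separate cultures, so the p-values measure only the spread between these libraries.

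As background, TGF-β ligands are secreted in a latent form and, once released, bring together a type II receptor (TGFBR2) and a type I receptor (TGFBR1), while TGFBR3, or betaglycan, holds ligand at the cell surface and presents it. The activated type I receptor phosphorylates SMAD2 and SMAD3, which join SMAD4 and enter the nucleus to bind DNA, and SMAD7 is induced by the pathway and shuts the receptors off. In the developing pancreas TGF-β signals are known to restrain epithelial growth and to favour mesenchymal traits, and an inhibitor of the pathway is a common component of PP culture media.

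The bases around the summit of 6 member regions are shown because the account below turns on them. They are the region whose rank rose by the test across all shared regions (in TGFB2), the start-site region with the largest rise in percentile (SMAD3), the start-site region found only in the I-BET151 lists (TGFB3), and the strongest regions found only in those lists at the receptors, at SMAD2 and SMAD3, and at SMAD7. The SMAD3 and TGFB3 start-site regions were added to the preset choice after their values were seen. Each run spans 201 bases of hg38, plus strand, centred on the summit, and capitals mark every match to the motifs that were searched.
TGFB2 intron 1, chr1:218397881-218398081: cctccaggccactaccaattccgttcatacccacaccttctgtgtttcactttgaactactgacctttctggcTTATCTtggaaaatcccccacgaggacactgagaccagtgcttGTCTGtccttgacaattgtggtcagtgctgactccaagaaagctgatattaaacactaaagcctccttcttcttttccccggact
SMAD3 start site, chr15:67065382-67065582: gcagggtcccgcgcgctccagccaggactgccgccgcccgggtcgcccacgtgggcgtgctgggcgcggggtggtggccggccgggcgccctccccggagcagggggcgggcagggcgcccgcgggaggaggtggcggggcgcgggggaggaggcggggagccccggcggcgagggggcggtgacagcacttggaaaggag
TGFB3 start site, chr14:75982257-75982457: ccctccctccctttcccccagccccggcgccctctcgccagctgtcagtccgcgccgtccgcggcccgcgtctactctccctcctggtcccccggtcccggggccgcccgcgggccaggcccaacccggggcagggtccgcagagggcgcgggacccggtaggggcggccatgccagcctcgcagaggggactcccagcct
TGFBR3 intron 2, chr1:91851463-91851663: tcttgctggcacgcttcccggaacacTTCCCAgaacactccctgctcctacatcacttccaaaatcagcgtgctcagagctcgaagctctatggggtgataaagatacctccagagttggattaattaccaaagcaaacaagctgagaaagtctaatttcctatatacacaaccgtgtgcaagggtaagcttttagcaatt
SMAD2 intron 1, chr18:47919587-47919787: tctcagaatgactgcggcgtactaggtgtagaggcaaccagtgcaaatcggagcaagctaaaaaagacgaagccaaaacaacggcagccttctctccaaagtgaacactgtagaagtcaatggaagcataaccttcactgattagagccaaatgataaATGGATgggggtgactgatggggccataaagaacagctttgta
SMAD7 downstream, chr18:48914676-48914876: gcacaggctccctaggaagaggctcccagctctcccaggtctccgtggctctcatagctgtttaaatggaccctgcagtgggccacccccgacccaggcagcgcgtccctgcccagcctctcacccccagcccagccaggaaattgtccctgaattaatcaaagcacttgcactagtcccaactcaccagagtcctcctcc
In the TGFB2 run the capitals are a GATA match (AGATAA on the minus strand) and a match to GTCTG, the short element that SMAD proteins bind. The TGFBR3 run holds an RBPJ match (TGGGAA on the minus strand) and the SMAD2 run an ONECUT match (ATNGAT). The TGFB3, SMAD3 and SMAD7 runs held none of the searched motifs, and the start-site runs of TGFB3 and SMAD3 were 78.6% and 82.6% G and C.

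The deposited lists held 82568 and 38295 peaks for DMSO replicates 1 and 2, and 84995 and 111324 peaks for I-BET151 replicates 1 and 2 on the autosomes, X and Y. The authors called peaks in each library on its own. The reads behind the lists, worked out from their backgrounds and shortest peaks, came to 38.7 and 36.6 M for DMSO and 12.5 and 16.0 M for I-BET151. The I-BET151 lists were thus longer than that of DMSO replicate 2 although they rested on fewer reads. Among regions called in all 4 lists, the I-BET151 libraries both exceeded the higher DMSO library in fold enrichment (pileup over local background at the summit, the authors' value) at 90.1% of regions, and in pileup per M reads at 97.4%. The median log2 change of pileup per M reads over these regions was 1.57 between the replicate 1 libraries and 2.25 between the replicate 2 libraries. Folds at single genes are therefore read below against this shift, mainly through the percentile. The percentile is the position of a peak among all peaks of its own list by fold enrichment (100 is the highest). It therefore also depends on how many weaker peaks that list holds. The rank difference of the test compares only regions called in all 4 lists.

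More regions of the TGF-β core were called with I-BET151 than with DMSO when the lists of a condition were added up, as held for all merged regions. The main counts are given beside those of all merged regions. DMSO replicates 1 and 2 had 56 and 32 of the 122 member regions (45.9% and 26.2%), and I-BET151 replicates 1 and 2 had 60 and 95 (49.2% and 77.9%). Of all 164301 merged regions these lists held 78671, 37658, 80816 and 111206 in the same order. A region is called gained here when each I-BET151 list held it and neither DMSO list did, and lost in the opposite case. There were 20 gained members (16.4% of members, against 17.0% of all merged regions) and 3 lost members (2.46%, against 2.37%). Regions called in all 4 lists numbered 23 (18.9%, against 15.6%), 33 were called in I-BET151 replicate 2 only (27.0%, against 22.3%) and 13 in DMSO replicate 1 only (10.7%, against 18.1%). A further 10 regions were found in I-BET151 replicate 1 alone (8.20%, against 16507 of the 164301 merged regions). Of the rest, 1 was found only in DMSO replicate 2, and 19 in another combination of lists. The excess of gained over lost members was not present at equal list lengths. With the strongest 38295 peaks of each list, 4 of 52 member regions were gained and 4 lost (7.69% each, against 9.19% and 5.85% of all merged regions). Without I-BET151 replicate 1 there were 53 gained members (43.4%, against 39.3% of all merged regions). Without DMSO replicate 2 there were 16 lost members (13.1%, against 20.4%), and without I-BET151 replicate 2 there were 6 (4.92%, against 4.46%).

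**Figure D1:**
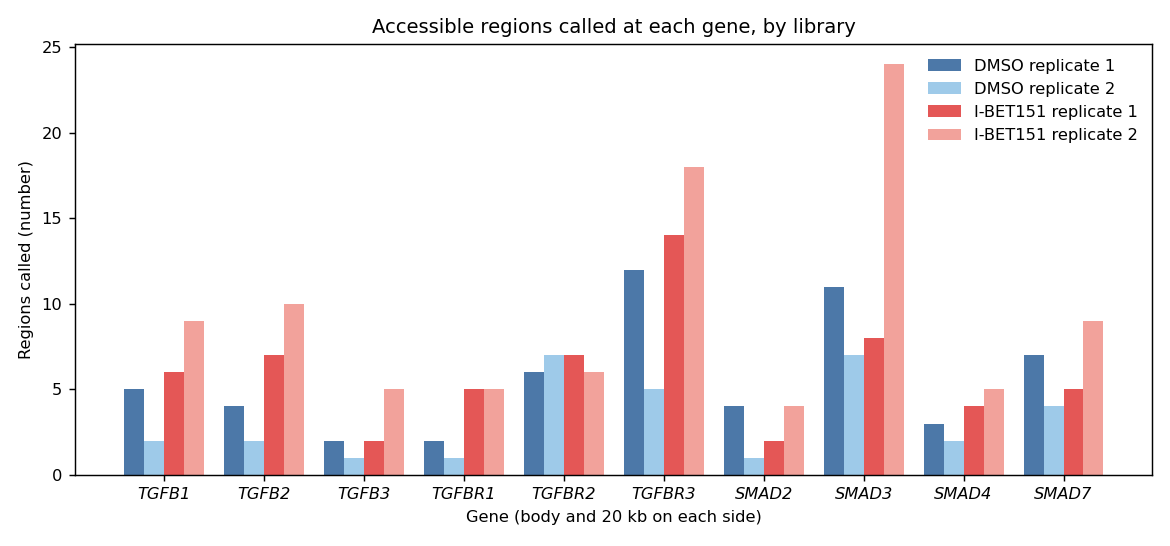
Number of accessible regions called at each of the 10 genes (gene body and 20 kb on each side), 1 bar per library. TGFBR2 had 6 to 7 regions in every library, whereas SMAD3 had 24 regions in I-BET151 replicate 2 and 7 to 11 in the other libraries.

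The members lay mostly inside the genes. Of the 122 summits, 65 were in introns of the canonical transcript, 9 in exons, 30 upstream and 18 downstream, and for 109 the nearest start site of a protein-coding gene was that of the listed gene. The 13 others lay mainly in the gene-dense TGFB1 window, where 9 of 11 summits were nearer to B9D2, TMEM91 or CCDC97, and in the TGFB3 window, which overlaps IFT43. Regions were densest at SMAD7 and SMAD3 (16.9 and 15.8 regions per 100 kb of window) and sparsest at SMAD2 (3.70 per 100 kb). Members called in all 4 lists had a median width of 859 bp, and gained members one of 508 bp. Over all merged regions these medians were 830 and 483 bp.

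**Figure D2:**
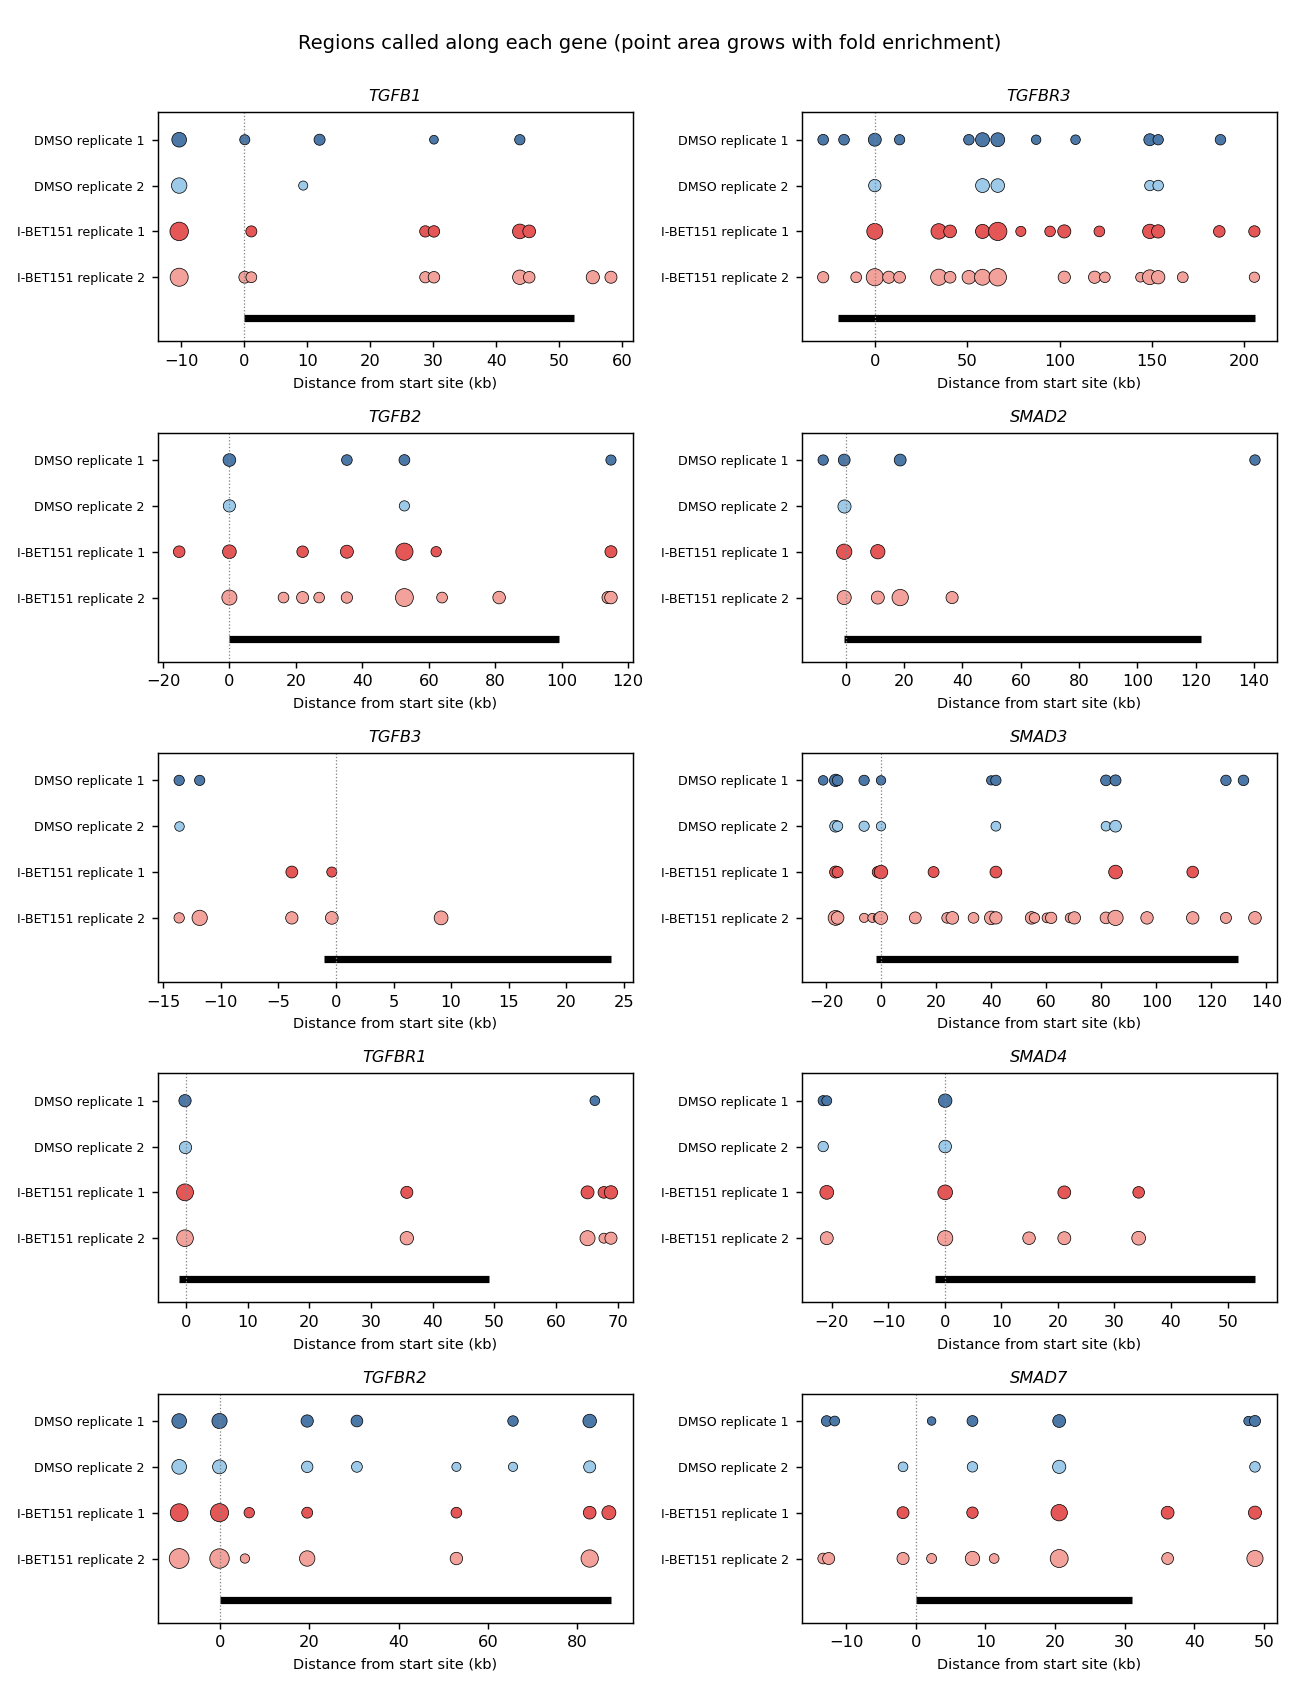
Regions called along each gene by distance of the summit from the start site of the canonical transcript (kb, positive in the direction of transcription), 1 row per library. Point area grows with fold enrichment and the black bar is the gene body. The strongest points of TGFBR2, TGFBR3 and SMAD7 recur in all 4 rows, and the 3 gained regions downstream of TGFBR1 form a cluster.

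Start-site regions, whose summit lay within 1 kb of the start of the canonical transcript, were found for 9 of the 10 genes, and 7 of these regions were called in all 4 lists. Of all 20033 protein-coding genes, 72.0% had such a region, 51.6% had it in all 4 lists and 7.35% had one that was gained. The 7 shared start sites belonged to TGFB2, TGFBR1, TGFBR2, TGFBR3, SMAD2, SMAD3 and SMAD4. Their fold enrichment was 2.91 to 8.33 in DMSO replicate 1, 2.87 to 6.92 in DMSO replicate 2, 6.48 to 12.1 in I-BET151 replicate 1 and 6.18 to 14.0 in I-BET151 replicate 2. At each of the 7 start sites the lower I-BET151 fold exceeded the higher DMSO fold, as most shared regions of the genome did. The 3 exceptions to a shared start site were TGFB1, TGFB3 and SMAD7. The TGFB1 region was called in 1 library of each condition, the TGFB3 region was gained, and SMAD7 had no summit within 1 kb of its canonical start. A SMAD7 intron 1 region, called in DMSO replicate 1 and I-BET151 replicate 2, had its summit 193 bp from another annotated SMAD7 start.

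**Figure D3:**
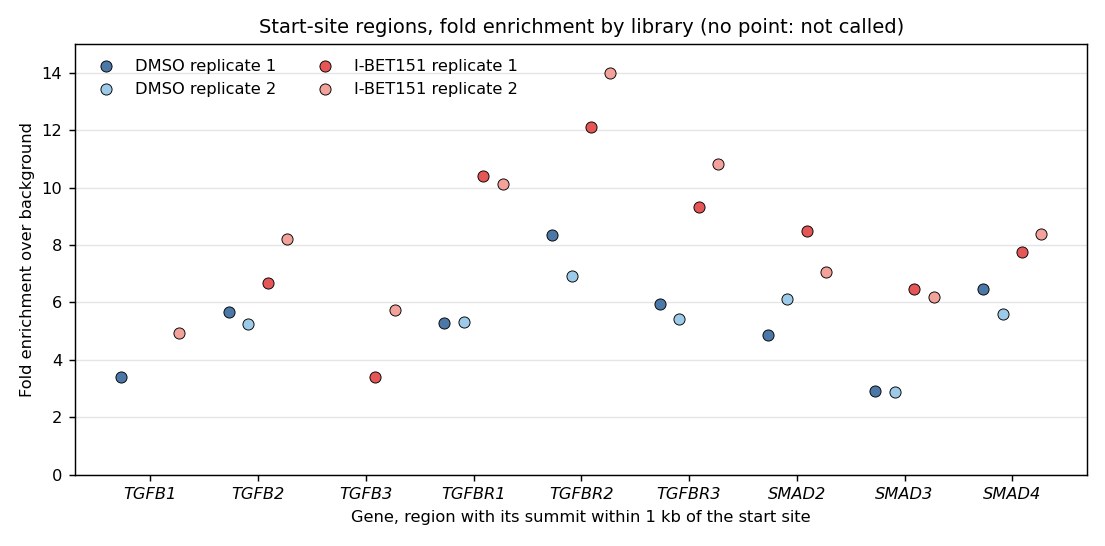
Fold enrichment at the 9 start-site regions, 1 point per library, with no point where the region was not called. At TGFBR2 the folds ran from 6.92 to 14.0, and at SMAD3 from 2.87 with DMSO to 6.48 with I-BET151.

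Among the ligand genes, TGFB2 held the only member region whose rank rose by the test. TGFB2 spans chr1:218345336-218444619 on the plus strand, and the region (chr1:218397683-218398403, 721 bp) lies in intron 1, 52.6 kb downstream of the start. Its fold enrichment was 4.00 and 3.52 in DMSO replicates 1 and 2, and 10.9 and 11.8 in I-BET151 replicates 1 and 2, from summit pileups of 21, 20, 32 and 57 reads. The groups did not overlap on this scale, with means of 3.76 ± 0.34 and 11.3 ± 0.64 (SD, n = 2 each), a 3.01-fold ratio, while the median ratio over all shared regions was 1.79. Its percentile was 54.7 and 30.8 with DMSO, in the middle of the lists, and 91.5 and 91.3 with I-BET151. The difference in normal score of the ranks was 1.47 ± 0.38 (SE), with an adjusted p of 0.0380 by limma with Benjamini-Hochberg adjustment over 25627 shared regions. The difference kept its size without DMSO replicate 1 (1.54, adjusted p = 0.219) and without DMSO replicate 2 (1.40, adjusted p = 0.223), where the call was lost. Over all shared regions the calls upward fell from 875 to 192 and 277 in these smaller fits. With regions ranked by −log10 p, the TGFB2 difference was 1.26 (adjusted p = 0.125, limma). For log2 pileup per M reads centred on each library's median it was 0.545 (adjusted p = 0.134, limma).

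The TGFB2 start site itself did not share this rise. Its region (chr1:218344863-218346275, summit 12 bp upstream) had folds of 5.67 and 5.24 with DMSO and 6.68 and 8.22 with I-BET151. In rank it stood higher with DMSO, with percentiles of 86.2 and 74.6 against 65.8 and 72.6, which did not overlap. The rank difference of −0.87 ± 0.38 (SE) did not pass adjustment (adjusted p = 0.166, limma). Beyond these, TGFB2 had 1 gained region, in intron 1 at 22.0 kb, with folds of 4.61 and 5.09, and 5 regions called in I-BET151 replicate 2 only.

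TGFB3 (chr14:75958097-75983011, minus strand) had no region called in all 4 lists. Its start-site region (chr14:75981576-75982795, summit 362 bp upstream) was gained, with folds of 3.41 and 5.73 and pileups of 17 and 53 reads. The libraries differed widely, since the peak ranked near the bottom of the I-BET151 replicate 1 list (percentile 1.97) and near the middle of the replicate 2 list (percentile 45.1). The other gained TGFB3 region, with folds of 4.92 and 5.36, had its summit 47 bp from the start of IFT43, a gene of intraflagellar transport. At TGFB1 (chr19:41301587-41353922, minus strand) the start-site summit lay 87 bp inside exon 1, in the untranslated part. It was called in DMSO replicate 1 (fold 3.42) and in I-BET151 replicate 2 (fold 4.93), both from pileups of 35 reads, and not in the other library of either condition. The coding part of exon 1 held a gained region with folds of 4.19 and 4.01. The strongest of the 3 gained TGFB1 regions had folds of 5.76 and 4.67 and lay 1486 bp from the start of CCDC97. The strongest region of the window, shared by all 4 lists with folds of 7.74, 8.64, 12.6 and 12.0 in DMSO replicates 1 and 2 and I-BET151 replicates 1 and 2, had its summit 100 bp from the start of B9D2.

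The receptor genes TGFBR1, TGFBR2 and TGFBR3 held 6, 10 and 27 regions, of which 4, 0 and 4 were gained and 0, 2 and 0 lost. Over all merged regions 17.0% were gained and 2.37% lost. With counts this small, a difference between the genes was not tested. TGFBR1 (chr9:99104038-99154192, plus strand), the type I receptor that 616452 blocks, had 6 regions, of which 4 were gained and 1 was called in all 4 lists. The shared region covered the start site (chr9:99104401-99105997), with folds of 5.29 and 5.32 with DMSO and 10.4 and 10.1 with I-BET151. Its percentiles were 82.8 and 76.1 against 90.0 and 84.9, so the groups did not overlap, yet the rank difference among shared regions was 0.05 ± 0.39 (SE; adjusted p = 0.956, limma). Of the 4 gained regions, 1 lay in intron 4 (folds 5.10 and 6.36) and 3 lay downstream of the gene, between 65.1 and 68.9 kb from the start. The strongest of these (chr9:99170019-99170611) had folds of 5.96 and 8.19 and pileups of 35 and 67 reads, and the others had folds of 4.75 and 3.32, and of 6.29 and 5.15. The local background at the 3 downstream regions was 5.04 to 5.74 reads in I-BET151 replicate 1, against a genome-wide background of 0.923 reads. These regions lie close together, and reads between their summits were not measured. DMSO replicate 1 had a peak of its own between them, at 66.3 kb, with a fold of 3.16 from 24 reads.

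TGFBR2 (chr3:30606601-30694142, plus strand), the type II receptor that binds ligand, had the most even calls. There were 6 and 7 regions in the DMSO lists and 7 and 6 in the I-BET151 lists, with 4 regions shared by all lists, and no region was gained. The start-site region (chr3:30605923-30606994) had folds of 8.33 and 6.92 with DMSO and 12.1 and 14.0 with I-BET151, and a region 9.08 kb upstream had folds of 7.69, 7.75, 11.7 and 14.6 in the same order. Both stayed near the top of every list, with percentiles of 89.9 to 97.4. At TGFBR2, 2 member regions were lost. In intron 1 at 30.7 kb (chr3:30637211-30637579) the folds were 4.77 and 4.01 from 18 and 17 reads, and in coding exon 4 at 65.6 kb (chr3:30671871-30672585) they were 3.73 and 2.76 from 17 and 13 reads. The exon 4 region lies outside the naming rule and is given because only 3 regions were lost in all.

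The TGFBR2 intron 1 region at 19.6 kb (chr3:30625790-30626776) had the largest fall in mean percentile among the shared members. Its folds were 5.28 and 4.51 with DMSO, and 4.10 and 8.60 with I-BET151, from pileups of 29, 23, 9 and 37 reads. The percentile was 14.1 in I-BET151 replicate 1, below both DMSO values of 82.7 and 61.3, and 75.5 in I-BET151 replicate 2, between them, so the groups overlapped. The rank difference was −1.18 ± 0.46 (SE; adjusted p = 0.128, limma). It was −0.44 without I-BET151 replicate 1 (adjusted p = 0.593) and −1.91 without I-BET151 replicate 2 (adjusted p = 0.00146, past the threshold), so its size rested on which of those libraries was kept. The intron 6 region at 82.8 kb behaved alike, with folds of 6.54 and 5.06 with DMSO and of 5.68 and 10.99 with I-BET151.

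TGFBR3 (chr1:91680343-91906335, minus strand), the co-receptor, is the longest of the 10 genes and had 27 regions. The start-site region (chr1:91885589-91886890) had folds of 5.93 and 5.41 with DMSO and 9.34 and 10.8 with I-BET151, and its percentile hardly moved (88.3 and 77.2 against 85.4 and 87.9). Of its 4 gained regions, that in intron 2 at 34.6 kb (chr1:91851276-91851959) was the strongest of all 20 gained members, with folds of 8.68 and 9.52, pileups of 20 and 29 reads and percentiles of 82.1 and 81.5. Its background was low, at 1.42 and 2.15 reads. A second intron 2 region, 58.3 kb from the start (chr1:91827238-91828428), was called in all 4 lists and had the third largest fall in percentile. Its folds were 7.08 and 6.91 with DMSO and 7.12 and 9.20 with I-BET151, and its percentiles were 94.1 and 89.9 against 70.4 and 79.7, which did not overlap. The rank difference of −1.30 ± 0.38 (SE) missed the threshold (adjusted p = 0.0561, limma). It passed by limma with trend (adjusted p = 0.0362), with peaks of −log10 p of at least 10 (0.0191) and with replicates paired crosswise (0.0180), a pairing chosen after seeing the data. By limma it did not pass with the replicate block (adjusted p = 0.0696), ranked by −log10 p (0.154), for centred pileup (0.119) or at 50% overlap (0.0554). Leaving out each library in turn, the rank difference was −1.37 to −1.22. On the fold scale the same region was higher with I-BET151, so the fall is one of rank among shared regions.

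Among the SMAD genes, SMAD3 had the largest rise in percentile of all 23 shared members, at its start site. SMAD3 spans chr15:67063763-67195173 on the plus strand, and the region (chr15:67065049-67065907) has its summit 120 bp upstream of the start. Its fold was 2.91 and 2.87 with DMSO, among the weakest peaks of those lists (percentiles 7.69 and 7.11). With I-BET151 the fold was 6.48 and 6.18, at percentiles of 63.9 and 51.3. The pileups were 25, 26, 31 and 57 reads, and the mean fold was 2.89 ± 0.03 with DMSO and 6.33 ± 0.21 with I-BET151 (SD, n = 2 each), with no overlap. The rank difference of 1.05 ± 0.40 (SE) did not pass adjustment over all shared regions (adjusted p = 0.119, limma). It was 1.40 without I-BET151 replicate 2, 0.70 without I-BET151 replicate 1, and 0.95 and 1.15 without DMSO replicates 1 and 2. With regions ranked by −log10 p it was 1.02 (adjusted p = 0.178, limma). For log2 pileup per M reads it was 2.14 uncentred (adjusted p = 4.79e-06, limma). Once centred on each library's median it was 0.21 (adjusted p = 0.540, limma). The local background was 7.94 and 8.41 reads with DMSO, 3.94 reads in I-BET151 replicate 1 and 8.39 reads in I-BET151 replicate 2.

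The rest of the SMAD3 locus depended on the library. Of 27 regions, 13 were called in I-BET151 replicate 2 only, where 22.3% of all merged regions had that pattern. These 13 had folds of 2.66 to 5.65 and pileups of 10 to 24 reads, and 11 of them lay in intron 1. In I-BET151 replicate 2, 24 of the 27 regions were called, against 8 in I-BET151 replicate 1 and 11 and 7 in the DMSO libraries. The 2 gained SMAD3 regions lay 1292 bp upstream (folds 4.23 and 2.65) and in intron 5 at 113.2 kb (folds 4.70 and 5.45). The region 16.6 kb upstream (chr15:67048456-67049275) had the second largest fall in percentile, with folds of 5.33 and 4.81 with DMSO and 5.04 and 8.02 with I-BET151. Its I-BET151 percentiles, 39.2 and 71.1, spread around the lower DMSO value (83.1 and 68.3), and the rank difference of −1.06 ± 0.39 (SE) did not pass adjustment (adjusted p = 0.111, limma). Without I-BET151 replicate 2 it was −1.36 and passed (adjusted p = 0.0327).

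SMAD2 (chr18:47808957-47931146, minus strand) had 6 regions over a gene of similar length to SMAD3. The start-site region (chr18:47929922-47931689) was the widest of all members at 1768 bp, with folds of 4.87 and 6.13 with DMSO and 8.49 and 7.06 with I-BET151. The region in intron 1, 10972 bp from the start (chr18:47919499-47919949) was gained, with folds of 7.34 and 6.005 from 15 and 16 reads. SMAD4 (chr18:51028528-51085045, plus strand), the partner of both, had a start-site region (chr18:51029704-51031238) with folds of 6.45 and 5.58 with DMSO and 7.77 and 8.39 with I-BET151. In rank it was lower with I-BET151, with percentiles of 75.9 and 74.2 against 91.4 and 79.4, and the rank difference was −0.93 ± 0.38 (SE; adjusted p = 0.145, limma). Of its 2 gained regions, that in intron 4 (folds 5.83 and 5.96) was the stronger. SMAD4 also had the third lost member region, 21.5 kb upstream (chr18:51008539-51009037), with folds of 3.46 and 3.66 from 14 and 15 reads. A separate region less than 1 kb away was called in DMSO replicate 1 and in both I-BET151 libraries, with folds of 3.27, 6.82 and 5.94.

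SMAD7 (chr18:48919853-48950965, minus strand), the inhibitory SMAD, had 12 regions over a gene of 31.1 kb and the 20 kb on each side, and 4 of them lay in the gene. The region nearest to its canonical start (chr18:48951554-48953026) had its summit 1838 bp upstream. It was not called in DMSO replicate 1, and had folds of 3.11 in DMSO replicate 2 and 4.98 and 5.14 in the I-BET151 libraries. The highest pileups of all members were in intron 3, 20.6 kb from the start (chr18:48929971-48930741), of 62 and 71 reads for DMSO replicates 1 and 2 and of 76 and 191 reads for I-BET151 replicates 1 and 2. Its folds were 5.83 and 6.21 against 9.80 and 11.8, and its percentiles hardly differed (87.7 and 85.2 against 87.5 and 91.5). The downstream region at 48.7 kb (chr18:48901655-48902668) had the third largest rise in percentile, but its I-BET151 percentiles of 58.9 and 81.8 overlapped the DMSO values of 63.0 and 41.2. The gained SMAD7 region lay downstream at 36.2 kb, with folds of 5.82 and 4.86.

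Over all 23 shared members, the ranks were divided between rise and fall. Limma called 1 region up (4.35% of the shared members, against 3.41% of all shared regions) and 0 down (against 1.96%), while at an unadjusted p under 0.05 there were 2 up (8.70%, against 12.97% of all shared regions) and 5 down (21.7%, against 11.9%). The lower I-BET151 fold exceeded the higher DMSO fold at 20 of the 23 (87.0%, against 90.1%), and pileup per M reads did so at 21 (91.3%, against 97.4%). The exceptions on the fold scale were the TGFBR2 regions at 19.6 and 82.8 kb and the SMAD3 region 16.6 kb upstream, each with a low value in I-BET151 replicate 1. In percentile, the I-BET151 libraries stood above the DMSO libraries without overlap at 4 regions (17.4%, against 40.8%) and below them at 4 (17.4%, against 10.3%). The 4 above were the start sites of TGFBR1 and SMAD3, the TGFB2 intron 1 region and a TGFBR3 intron 5 region. Among shared regions their rank differences were 0.05, 1.05, 1.47 and −0.06 in that order, so TGFBR1 and TGFBR3 hardly moved there. The 4 below were the start sites of TGFB2 and SMAD4, the TGFBR3 intron 2 region at 58.3 kb and the region at the B9D2 start. The median change in percentile was 1.46 for the members and 6.21 for all shared regions. The direction of calls depended on the scale across the genome, with 875 regions up and 503 down in rank by fold, 24625 up and 14 down for pileup per M reads, and 184 up and 1225 down once that was centred on each library's median. On those 3 scales the members gave 1 up and 0 down, 21 up and 0 down, and 0 up and 1 down. With 2 libraries per condition, an exact permutation test of a single region cannot go below p = 0.33.

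**Figure D4:**
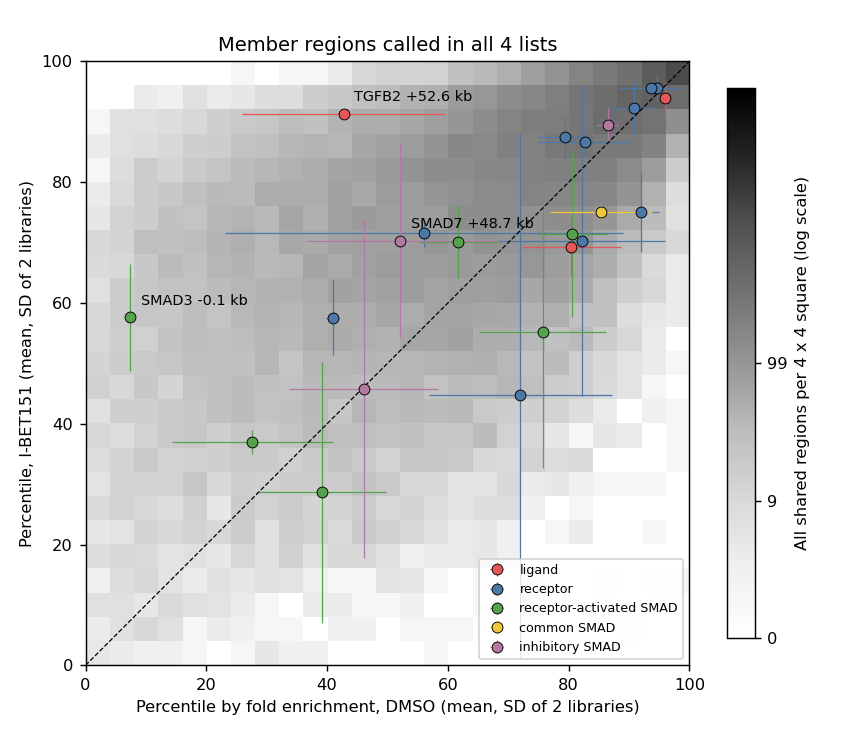
Mean percentile by fold enrichment with DMSO (horizontal) and I-BET151 (vertical) for the 23 member regions called in all 4 lists, coloured by role, with bars of 1 SD over the 2 libraries. The grey squares count all 25627 shared regions and the dashed line marks equal percentiles. The SMAD3 start site (7.40 with DMSO, 57.6 with I-BET151) and the TGFB2 intron 1 region (42.7 and 91.4) stand farthest above the line.

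Motifs under the summits are given beside their share over all merged regions. Within 100 bp on each side of the summit, GTCTG or its reverse complement was found in 45 of the 122 members (36.9%, against 37.8% of all merged regions). It was in 8 of the 20 gained members (40.0%, against 36.7% of all regions with these calls) and in 10 of the 23 shared members (43.5%, against 35.2%). The palindromic SMAD element was in 0 members and in 0.161% of all regions. The AP-1 element TGANTCA was in 17 members (13.9%, against 11.01%) and in 5 of the shared members (21.7%, against 10.8%). The GATA element was in 21 members (17.2%, against 14.2%), that of RBPJ in 25 (20.5%, against 19.7%), that of ONECUT in 17 (13.9%, against 21.2%), that of FOXA, TGTTTAC, in 4 (3.28%, against 4.57%) and the CTCF consensus in 1 (0.820%, against 1.86%). Both strands were searched, no overlaps between these motifs were removed, and a match describes letters only.

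A further 30 genes of the pathway, comprising activin, nodal and related ligands, their receptors, latency proteins, intracellular regulators and classical targets, held 276 merged regions. Of these, 52 were gained (18.8%, against 17.0% of all merged regions), 4 lost (1.45%, against 2.37%) and 57 in all 4 lists (20.7%, against 15.6%). The gained share ran from 14.3% at the receptors and co-receptors to 30% at the classical targets CCN2 and TGFBI, which had 3 such regions of 10. Of the 57 in all 4 lists, limma called 1 region up and 1 down, where 3.41% and 1.96% of all shared regions were called. The region that rose lay 8.66 kb upstream of PMEPA1, a target of TGF-β that dampens SMAD signalling, with percentiles of 54.5 and 35.5 with DMSO against 93.4 and 97.9 with I-BET151 (rank difference 1.94 ± 0.39 SE, adjusted p = 0.0152, limma). The region that fell lay 615 bp upstream of SKIL, a co-repressor of SMADs, with percentiles of 91.9 and 77.9 against 61.7 and 64.3 (rank difference −1.37 ± 0.38 SE, adjusted p = 0.0472, limma).

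The labelled cell type was checked on the start sites of 9 pancreatic progenitor genes, of which 7 and 6 had a region in the DMSO lists and 8 in each I-BET151 list. The cells are defined by PDX1 and NKX6-1 together. The PDX1 start site was gained, that of NKX6-1 was called in all 4 lists, and that of PTF1A in none. Of all coding genes, 7.35% had a gained start site. Of 6 mesenchyme or fibroblast genes, 1 (TWIST1) was called in each DMSO list and 3 (TWIST1, COL1A2 and PDGFRB) in each I-BET151 list, while the start sites of COL1A1, PDGFRA and THY1 were called in no list. The start sites of the pluripotency genes POU5F1 and NANOG and of the blood genes PTPRC and SPI1 were called in no list, whereas that of LIN28B, the other pluripotency gene of the list, was called in all 4. Of 3 endothelial genes, KDR was gained, PECAM1 was called in DMSO replicate 1 only and CDH5 in none. Of 3 liver genes, APOA2 was called in all 4 lists and ALB and AFP in none. Of 2 neural genes, SOX1 was called in 1 library of each condition and NEUROD2 in none, and of 3 genes of endocrine precursors, NEUROD1 alone was called, in I-BET151 replicate 1. The methods describe feeder cells for the long-term expanded PPs in EF6I, but state neither feeder cells nor a sort of the cells for these PP libraries. A change in the mixture of cells and a change in accessibility per cell cannot be told apart in these bulk libraries. The part of the mesenchymal start sites in the values at the TGF-β genes was not tested.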

How the data were processed

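ATAC-seq was measured in 4 libraries, 2 per condition, grouped and numbered by their labels. The peak names inside the lists are numbered otherwise (those of I-BET151 replicate 1 carry a 2, and those of both replicate 2 lists no number), so it is not known whether same-numbered libraries were made together. Per the labels and the methods, the authors mapped the reads with Bowtie2 (v2.2.5) on hg38, discarded mitochondrial and duplicate reads, and used MACS2 (v2.1.2) for peaks, library by library and with no control. Each deposited list gives, per peak, the fold enrichment (a ratio of pileup to local background), −log10 p and −log10 q values, and a display score, which was not used. The methods state a p-value threshold of 1e-05, whereas 7.54% to 10.9% of the peaks in the lists are weaker, and the lists end at a q-value of 0.05.

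Peaks on the autosomes, X and Y were used, and no peak ended beyond the hg38 sequence (overhang 0 bp). They were merged at an overlap of 1 bp and placed on GENCODE release 44 in Python 3.11.15 (pandas 2.3.3, numpy 2.4.6, scipy 1.17.1). Where several peaks of a list fell in a region, the highest fold was kept. Pileups in whole reads were solved from fold and p-value (99.9% to 100% of peaks per list), and numbers of reads from each list's background at the MACS2 default for genome size, with which they scale. Read length in the pileup was taken as the shortest peak of each list. It was 200 and 233 bp for DMSO replicates 1 and 2, and 200 and 256 bp for I-BET151 replicates 1 and 2. The methods state an extension of 200 bp. Read numbers and pileup per M reads depend on this length too. Depth limits each value to its pileup, and its counting error is not in the SD of 2 libraries. Ranks were compared over the regions called in all 4 lists, as normal scores of within-list ranks by fold. The test was the moderated test of limma (3.58.1, under R 4.3.3, two-sided, Benjamini-Hochberg, 0.05). It was tried on simulated pileups without a genome-wide shift, which cannot show how it behaves on these libraries.

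The 10 genes, the lists and the tests were chosen with earlier results of these data known. Named regions are the start-site region of each gene, every region limma called, per gene the strongest gained and the strongest lost region (by the lower of 2 folds), and the 3 largest rises and 3 largest falls in percentile. Other regions were named after their values were seen. Preset sequence windows over annotated untranslated exons (the strongest gained regions of the ligands and of SMAD4) were not printed. Alternatives were other thresholds, equal list lengths, merging at 50% overlap, windows of 5 and 50 kb, other scales, a replicate block and leaving out each library. From the list of other pathway genes and from that of neural markers, 1 gene each is not reported here and was left out of the counts.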

Additional observations from a re-analysis of the deposited data

How the results depend on the processing

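The number of member regions, 122 as reported, was 60 with peaks of −log10 p of at least 10 and 52 with equal numbers of peaks per list. The 20 gained regions became 13 and 4 under those settings, and the 3 lost regions became 0 at the stricter threshold. Leaving out each library in turn gave 22 to 53 gained and 3 to 16 lost regions. The count of 1 region up in rank was 0 when ranked by −log10 p, 0 with peaks of −log10 p of at least 10, 21 for pileup per M reads, 0 once that was centred, and 14 for unranked log2 fold. It was 0 to 2 when a library was left out. The count of 0 down was 1 for centred pileup, 1 with limma's trend, 1 with the stricter peaks, and 0 to 4 when a library was left out. Other merging, other windows and a wider start-site limit changed no count by over 1.5 times.

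Replicate numbers are shared by the conditions, but deviations of same-numbered libraries correlated at −0.14, so the numbers were not taken as pairs. This correlation cannot tell whether same-numbered libraries were made together. In minimum peak length the libraries divided by replicate number. It was 200 bp for DMSO and I-BET151 replicate 1, 233 bp for DMSO replicate 2 and 256 bp for I-BET151 replicate 2. With a replicate block, 1 member was up and 0 down (985 and 652 of all shared regions). With the pairing of replicates crossed, chosen after seeing the data, 1 was up and 2 down. Taken as a block of pairs, the replicate 1 pair alone had 32 regions in its I-BET151 list alone and 28 in its DMSO list alone (53.3% I-BET151, against 51.2% over all regions), and the replicate 2 pair 67 and 4 (94.4%, against 92.7%).

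Some rank differences changed sign. For the SMAD7 region at 48.7 kb the value was −0.30 by −log10 p, −0.66 for centred pileup, and −0.11 to 0.48 when a library was left out. On uncentred pileup and unranked fold, the falls became rises of 0.91 and 0.28 (TGFBR2, 19.6 kb), 0.79 and 0.33 (SMAD3, 16.6 kb upstream) and 1.33 and 0.21 (TGFBR3, 58.3 kb). On these scales 24625 and 19604 of all 25627 shared regions were called up. For centred pileup the differences were again falls, of −1.02, −1.14 and −0.59 in the same order. The cause was not tested. The TGFB2 intron 1 rise kept its direction in all 12 alternatives and its call in 8. The region was not among those shared at the stricter threshold.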
